A study of Mus musculus with 2 samples.

Results

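Calmodulin and the Ca2+/calmodulin-dependent kinases (CaMK) that read it were followed here as 9 genes in mouse mesenteric artery: the CaMK kinases *Camkk1* and *Camkk2*, the CaMK1 genes *Camk1* and *Camk1d*, the CaMK2 genes *Camk2b*, *Camk2d* and *Camk2g*, and the calmodulin genes *Calm2* and *Calm3*. They were chosen by symbol from an Ensembl identifier, without use of their values, and each of the 9 symbols matched 1 of the 55573 genes listed. Whole mesenteric arteries of wild type C57BL/6 mice, 10 weeks old, were kept, per the labels, for 60 min in 5 mM K+ (control) or in 60 mM K+ (depolarizing) solution, and poly(A) RNA was sequenced. Each condition had 1 library, made from the pooled tissue of 2 mice. The difference between the libraries therefore has no replicate check and no p-value, and mice, K+ and library cannot be told apart. The study's methods also name tetrodotoxin in all solutions. They take control arteries from the distal side of a ligature before the rest of the tissue is perfused with 60 mM K+, which differs from the equal times in the labels. If this held for the sequenced arteries, the segment, the perfusion and the longer time outside the animal cannot be told apart from K+ either.

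Calmodulin is a small Ca2+ sensor that changes shape when it binds Ca2+ and then switches on its target enzymes. CaMKK1 and CaMKK2 phosphorylate CaMK1 and CaMK4 on their activation loop, and CaMKK2 also phosphorylates the energy sensor AMPK, whereas CaMK2 activates itself by phosphorylation between the subunits of its ring-shaped holoenzyme. In smooth muscle, calmodulin also drives contraction through myosin light chain kinase, and the study asked how Ca2+ entry through Cav1.2 reaches the transcription factor CREB by way of CaMKK2 and CaMK1a, the product of *Camk1*.

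*Calm2* and *Calm3* encode the same protein, so reads can be assigned to one or the other only through differences in their RNA. A stretch of 90 bases from the third of 6 coding exons is shown for each gene, because these differences decide which gene a read is counted on. Sequences are from GENCODE vM1 on NCBIM37 (mm9), and capitals mark the 16 positions at which the genes differ.
Calm2: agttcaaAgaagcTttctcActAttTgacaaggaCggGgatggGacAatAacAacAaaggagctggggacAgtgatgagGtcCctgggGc
Calm3: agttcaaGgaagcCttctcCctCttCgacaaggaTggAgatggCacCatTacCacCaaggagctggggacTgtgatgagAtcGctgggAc
These lie at chr17:87835185-87835274 (minus strand) and chr7:17502988-17503077 (minus strand). Over the whole coding sequence of 450 bases, *Calm2* and *Calm3* were identical at 82.7% of positions, and their longest identical run was 17 bases. No window of 50 bases in 1 annotated transcript of each gene occurred in the chosen transcript of another of the 9 genes. Elsewhere in the mm9 genome, however, 35.8% of the 50-base windows of *Calm2* occurred again outside the gene, in 4 bins of 10 kb, compared with 4.42% for *Calm3* and 0.0868% for *Camk1d*. For the other 6 members no window was found elsewhere. How the authors' counting treated reads that match *Calm2* and another place is not given in the sources used here, so the counts of *Calm2* are uncertain. In addition, *Camk1* shares 3.82% of its exonic bases with *Ogg1*, which runs the other way, and whether reads were counted by strand is not given either.

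The 9 genes took 20333 of 10480918 reads in the control library (0.194%) and 22478 of 11289598 reads in the depolarized library (0.199%). All 9 passed the minimum of 10 reads over both libraries, as did 14829 genes in all. The least covered was *Camk1d* with 224 reads and the most covered was *Calm2* with 17011. The arteries carried the markers of their tissue: the 5 smooth muscle markers summed to 17193 FPKM in the control and 16787 in the depolarized library, among them *Myh11* with 154041 and 148394 reads. FPKM is the read count scaled by gene length and by total reads. Other cell types were present as well, with summed FPKM of 1265 and 1501 for 5 endothelial markers, 1886 and 1529 for 4 fibroblast markers, 68.4 and 43.9 for 4 adipocyte markers, 68.0 and 53.1 for 6 Schwann cell and nerve markers, 9.42 and 9.70 for 4 macrophage markers, 10.3 and 35.2 for 4 pancreatic markers, 6.14 and 7.91 for 4 striated muscle markers, and 0.680 and 0.243 for 3 lymphocyte markers. These sums hide markers that differed in direction. Among macrophage markers *Fcer1g* went from 22 to 39 reads, whereas *Csf1r* (62 and 34), *Adgre1* (11 and 6) and *Cd68* (22 and 20) had fewer. *Kdr* went from 168 to 73 reads while the endothelial sum rose, and *Tubb3* from 7 to 19 while the nerve sum fell. *Acta2* alone had 12480 and 12366 FPKM of the smooth muscle sums. The neuronal gene *Snap25* had 0 reads in both libraries. The part of these shifts in the differences below was not tested, and fewer cells of a type cannot be told apart from less RNA per cell.

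Per unit length, the calmodulin genes and *Camk2g* stood far above the other kinases in both libraries. *Calm2* had 903 FPKM in 5 mM K+ and 1047 in 60 mM K+, and *Calm3* had 411 and 395. Of the kinases, *Camk2g* was the highest with 254 and 267 FPKM, followed by *Camkk1* with 72.8 and 58.5 and *Camk1* with 64.6 and 68.7. The upstream kinase *Camkk2* had 29.6 and 29.0 FPKM and *Camk2d* had 30.0 and 22.4. At the low end, *Camk2b* had 8.77 and 6.53 FPKM and *Camk1d* 6.20 and 2.78.

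**Figure D1:**
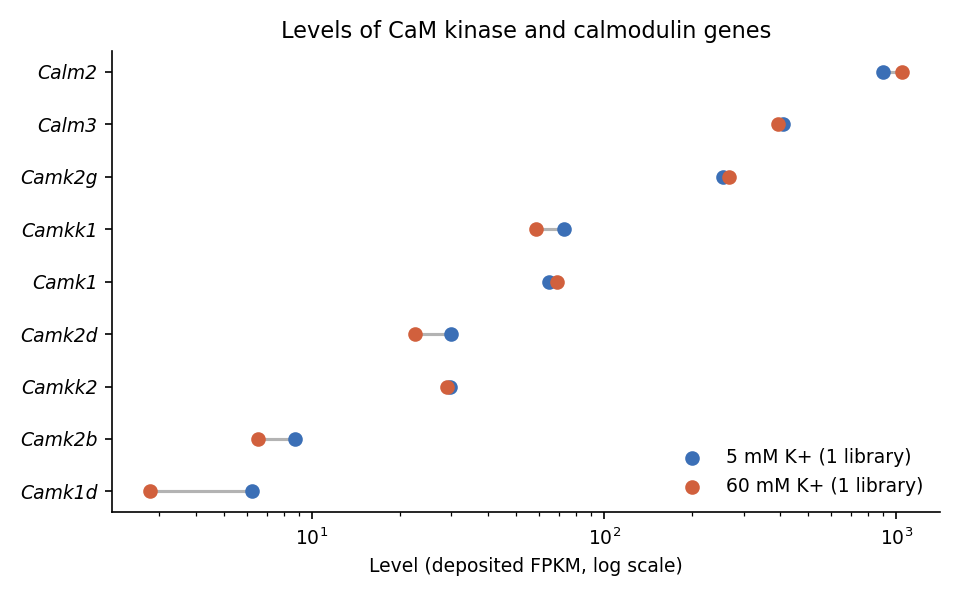
Level of each gene as deposited FPKM on a log scale, in the 5 mM K+ library and the 60 mM K+ library (1 point each, no replicates); FPKM is scaled by total reads. Calm2, Calm3 and Camk2g are the 3 highest in both libraries, and the widest gap between the points is that of Camk1d.

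Neighbors in this order were separated by more than counting error in all but 1 case. In the control library the ratio of *Camk2d* to *Camkk2* in FPKM was 1.01 (95% exact counting interval 0.910 to 1.13), so this pair did not differ at this depth. In the depolarized library *Camkk2* was the higher of the pair, 1.29 times *Camk2d* (1.15 to 1.45). *Camkk1* and *Camk1* also changed places, from a ratio of *Camkk1* to *Camk1* of 1.13 (1.05 to 1.21) in the control to a ratio of *Camk1* to *Camkk1* of 1.17 (1.09 to 1.26) in the depolarized library. These intervals, like all intervals here, are exact intervals that cover counting error only.

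To compare the libraries, reads were scaled by the trimmed mean of M-values (TMM), and log2(fold-change) is the depolarized over the control value. On this scale 5 of 9 genes were higher in 60 mM K+ with a counting interval wholly above 0, namely *Calm2*, *Camk1*, *Camk2g*, *Camkk2* and *Calm3*. Of all 14829 tested genes, 24.5% had an interval above 0. *Camk1d*, *Camk2d* and *Camkk1* were lower with an interval wholly below 0, compared with 21.0% of all tested genes, and the interval of *Camk2b* held 0. None of the 9 genes passed the fold of 2 that the study used as its limit of size, which 11.5% of all tested genes passed in either direction. Among the 9049 genes with at least 224 reads, the corresponding shares were 33.9% above 0, 23.3% below 0 and 3.23% past the fold of 2. Over the 9 genes, log2(fold-change) had a median of 0.14, beside -0.01 for all tested genes and 0.04 for genes with at least 224 reads.

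These directions depend on the scale. Scaling by total reads lowers every log2(fold-change) by 0.20. Scaling by *Ppia* and *Hprt*, the housekeeping genes of the study's qPCR, lowers it by 0.48, because both had more reads in the depolarized library, with log2(fold-change) of 0.50 and 0.46 on the TMM scale. The study chose both genes for their similar expression in its 5 mM and 60 mM K+ samples. With *Ppia* and *Hprt* all 9 genes were lower in 60 mM K+. *Camkk1*, *Camk2d*, *Camk2b* and *Camk1d* were lower under each of the 10 settings that were run, although the value of *Camkk1* was -0.0033 once a trend with gene length was removed, whereas the other 5 genes changed sign under at least 1 of them.

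**Figure D2:**
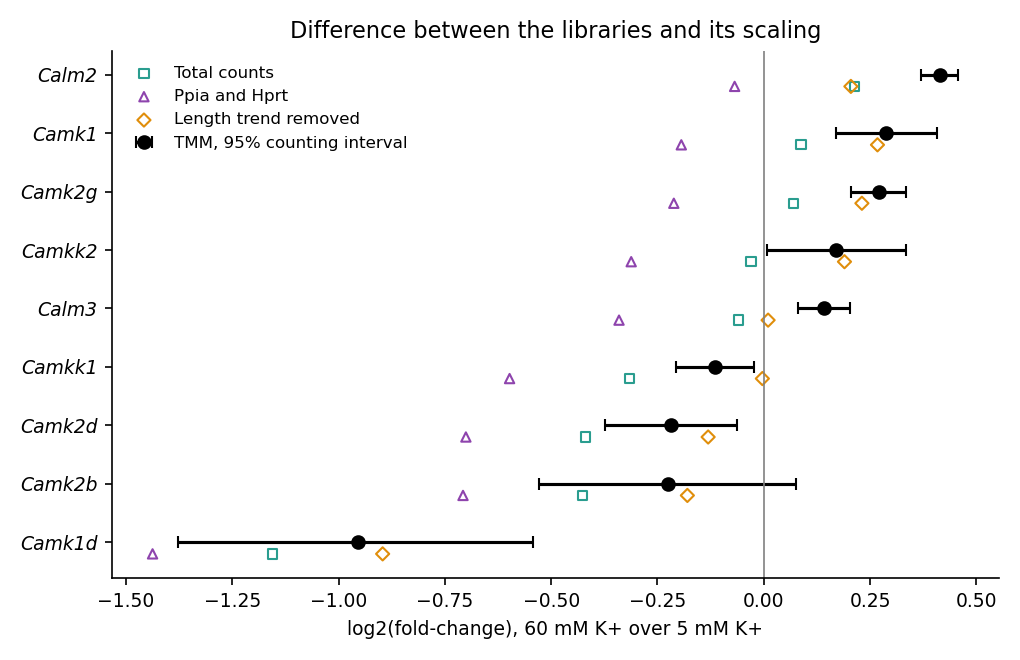
log2(fold-change) of each gene, 60 mM K+ over 5 mM K+ (1 library each), with TMM scaling and its 95% counting interval (filled circles and bars) and under 3 other settings (open symbols). Camk1d lies furthest below 0 under all 4 settings, and with Ppia and Hprt all 9 genes lie below 0.

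Of the CaMKK genes, *Camkk2* (chr5:123183213-123229391, minus strand) encodes the kinase on which the study centers. The control library held 601 and the depolarized library 634 of its reads, and log2(fold-change) was 0.17 (0.01 to 0.33). It was thus higher by an amount that barely exceeded counting error, the interval held 0 with upper-quartile scaling, and with total reads the value was -0.03. *Camkk1* (chr11:72832510-72855575, plus strand), its paralog, had 2077 and 1797 reads, a log2(fold-change) of -0.12 (-0.21 to -0.02). The ratio of the paralogs does not depend on scaling: *Camkk2* made up 22.4% of CaMKK reads (20.9 to 24.1) in the control and 26.1% (24.3 to 27.9) in the depolarized library. The *Camkk2* to *Camkk1* ratio was 1.22 times as high in 60 mM K+ (1.07 to 1.39). Per unit length, *Camkk1* remained the more abundant of the pair, with 71.1% of the summed FPKM in the control and 66.9% in the depolarized library. These are values of whole artery with all its cell types. The study's qPCR found *Camkk1* mRNA in mesenteric artery but did not detect it in cultured primary myocytes of the aorta.

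In the CaMK1 family, *Camk1* and *Camk1d* stood on opposite sides. *Camk1* (chr6:113284118-113293978, minus strand) had 1085 reads in 5 mM K+ and 1242 in 60 mM K+, for a log2(fold-change) of 0.29 (0.17 to 0.41). *Camk1d* (chr2:5214503-5635561, minus strand), which encodes CaMK1δ, had 151 and 73 reads. Its log2(fold-change) was -0.96 (-1.38 to -0.54), the largest difference among the 9 genes and close to, but not past, the fold of 2. Of all 14829 tested genes, 6.41% had a lower value. Of the 9049 genes with at least 224 reads, 37 (0.409%) did, a limit set by the reads of *Camk1d* itself. With upper-quartile scaling the value was -1.01, with total reads -1.16 and with *Ppia* and *Hprt* -1.44, all past the fold of 2. The ratio of *Camk1* to *Camk1d* reads was 7.19 in the control and 17.01 in the depolarized library, 2.37 times as high (1.76 to 3.21).

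Outside the 9 genes, *Pnck*, which encodes CaMK1β, had 929 and 795 reads, a log2(fold-change) of -0.13 (-0.27 to 0.01). With it, *Camk1* held 50.1% of CaMK1 family reads in the control (47.99 to 52.24) and 58.9% in the depolarized library (56.7 to 61.0), *Pnck* 42.9% and 37.7%, and *Camk1d* 6.97% and 3.46%. *Camk1g*, the gene of CaMK1γ, had 0 reads in both libraries, where 3 reads would correspond to 0.267 counts per 1000000 reads (CPM) in the control and 0.285 in the depolarized library on the TMM scale. *Camk4*, the other classic CaMKK substrate, had 7 and 5 reads, so that no difference was detectable at this depth.

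**Figure D3:**
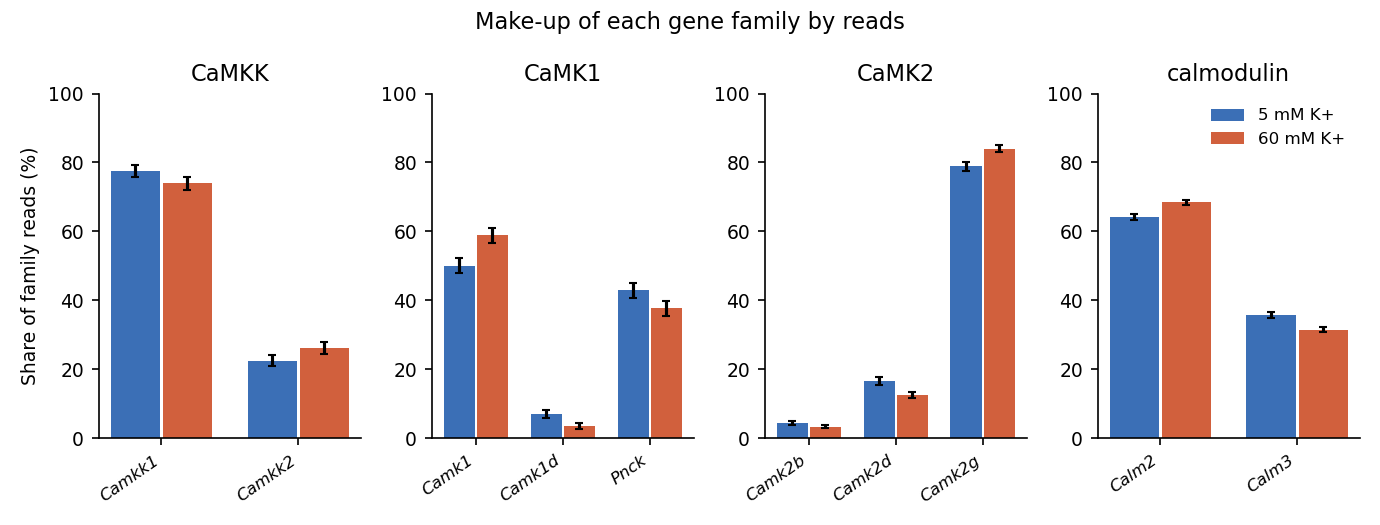
Share of the family reads that fell on each gene (bars, %, axis from 0) in the 5 mM K+ and 60 mM K+ libraries, with exact 95% counting intervals; genes with under 10 reads in a library are left out of the plot. In 60 mM K+ the share is higher for Camkk2, Camk1, Camk2g and Calm2. It is lower for Camkk1, Camk1d, Pnck, Camk2d, Camk2b and Calm3, and the intervals of Camk2b overlap between the libraries.

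The CaMK2 genes encode subunits that assemble into the same holoenzyme, so their proportions bear on its make-up at the RNA level. *Camk2g* (chr14:21554097-21613310, minus strand), which encodes CaMK2γ, had 3662 reads in 5 mM K+ and 4141 in 60 mM K+, for a log2(fold-change) of 0.27 (0.21 to 0.34). *Camk2d* (chr3:126299220-126547972, plus strand), the CaMK2δ gene, had 772 and 622 reads, a log2(fold-change) of -0.22 (-0.37 to -0.06). *Camk2b* (chr11:5869647-5966365, minus strand), the CaMK2β gene, had 207 and 166 reads, a log2(fold-change) of -0.23 (-0.53 to 0.08). The point values of *Camk2d* and *Camk2b* were nearly equal, but the lower depth of *Camk2b* left its interval across 0.

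*Camk2g* thus took a larger part of the family in the depolarized library: 78.9% of CaMK2 reads in the control (77.7 to 80.0) and 84.0% in 60 mM K+ (82.9 to 85.0). *Camk2d* went the other way, from 16.6% (15.6 to 17.7) to 12.6% (11.7 to 13.6), and *Camk2b* held 4.46% (3.88 to 5.09) and 3.37% (2.88 to 3.91). Per unit length the part of *Camk2g* was 86.7% and 90.2% of the summed FPKM. The ratio of *Camk2g* to *Camk2d* was 1.40 times as high in the depolarized library (1.25 to 1.58), and that of *Camk2g* to *Camk2b* 1.41 times as high (1.14 to 1.75). For *Camk2d* to *Camk2b* the ratio differed 1.00-fold, with an interval of 0.793 to 1.27. *Camk2a*, mainly a neuronal gene, had 3 and 2 reads. The values are per gene, so that the splice variants of *Camk2d* and *Camk2g* are not separated.

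Of the calmodulin genes, *Calm2* (chr17:87832752-87846275, minus strand) had 7565 reads in the control and 9446 in the depolarized library. Its log2(fold-change) was 0.41 (0.37 to 0.46), the highest of the 9 genes, and 81.9% of all tested genes had a lower value. *Calm3* (chr7:17500728-17509463, minus strand) had 4213 and 4357 reads, a log2(fold-change) of 0.14 (0.08 to 0.20), which became -0.06 with total reads. Of the reads on *Calm2* and *Calm3* together, *Calm2* held 64.2% (63.4 to 65.1) in the control and 68.4% (67.7 to 69.2) in the depolarized library, and per unit length its part was 68.7% and 72.6% of their summed FPKM. The ratio of *Calm2* to *Calm3* was 1.21 times as high in 60 mM K+ (1.15 to 1.27), with the uncertainty in assigning *Calm2* reads given above.

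Gene length moved with the difference between the libraries. Among genes with at least 50 reads, divided into 20 equal bins by the length used for FPKM, the median log2(fold-change) was 0.29 in the shortest bin, with a median length of 656.5 bases, and -0.15 in the longest, with a median length of 5289. *Calm2* (799 bases) and *Calm3* (978 bases) are short, and the 4 genes below 0 were the longest of the 9, from 2251 bases for *Camk2b* to 2723 for *Camkk1*. With the median of genes of like length subtracted, a step chosen after the data were seen, *Calm3* stood at 0.01 (-0.05 to 0.07), *Camkk1* at -0.0033 (-0.10 to 0.09) and *Camk2d* at -0.13 (-0.29 to 0.02), so that their intervals held 0. *Calm2* at 0.20, *Camk1* at 0.27, *Camk2g* at 0.23, *Camkk2* at 0.19 and *Camk1d* at -0.90 kept intervals off 0. The ratio of *Camkk2* to *Camkk1* compares genes of 1938 and 2723 bases and that of *Camk2g* to *Camk2d* genes of 1373 and 2456 bases, and the part of length in these ratios was not tested.

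**Figure D4:**
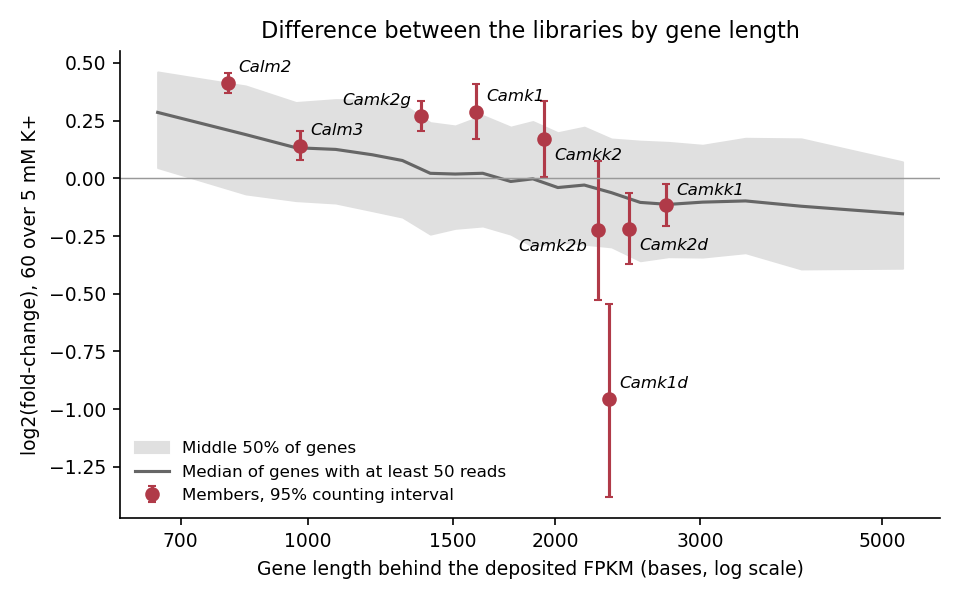
log2(fold-change), 60 mM K+ over 5 mM K+ with TMM scaling, against the gene length behind the deposited FPKM (log scale), for the 9 genes (points, 95% counting intervals) over the median and middle 50% of genes with at least 50 reads. The median falls from 0.29 to -0.15 with length, and Camk1d at -0.96 lies below the middle 50%.

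Because the pathway under study ends at CREB, the promoters of the genes were searched for its binding motif, the cAMP response element (CRE). RefSeq promoters (GRCm38.p6, from 250 bases before to 50 after the start) were at hand for 7 of 9 genes, in 8 windows, the exceptions being *Calm2* and *Camk2g*. The full CRE, TGACGTCA, was in 0 of 8 windows, compared with 1.79% of 32851 promoters. The shorter motif TGACG, on either strand, was in 3 of 8, compared with 20.8% of all promoters. Every full CRE also holds the shorter motif. The 3 matches are shown with the motif in capitals, on the strand of each gene, because they are the places where these promoters carry the letters of the motif.
Camk1: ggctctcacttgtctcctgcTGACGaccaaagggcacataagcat
Camkk1: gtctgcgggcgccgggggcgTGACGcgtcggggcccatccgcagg
Calm3: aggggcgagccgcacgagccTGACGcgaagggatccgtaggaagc
On GRCm38.p6 these lie at chr6:113344083-113344127, chr11:73018802-73018846 and chr7:16924067-16924111. The genes with a match did not share a direction, with log2(fold-change) of 0.29 for *Camk1*, -0.12 for *Camkk1* and 0.14 for *Calm3*. A match of letters is not a binding site.

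Genes of kinase inhibitors and phosphatases were read beside the kinases, in a list that also held the striatin genes *Strn*, *Strn3* and *Strn4*. Of the 8 genes, 3 had intervals above 0, 3 below 0 and 2 across 0, with a median of 0.01. *Strn* was among the 3 below 0, and the 2 across 0 were *Strn3* and *Strn4*. *Camk2n2*, which encodes a small inhibitor of CaMK2, passed the fold of 2, with 57 reads in 5 mM K+ and 137 in 60 mM K+ and log2(fold-change) at 1.36 (0.90 to 1.83). The related inhibitor gene *Camk2n1* had 876 and 1104 reads, a log2(fold-change) of 0.43 (0.30 to 0.56). With *Ppia* and *Hprt* scaling, *Camk2n2* stayed above 0 but under the fold of 2, and *Camk2n1* lay below 0. *Ppm1e*, a phosphatase gene that acts on CaM kinases, had 773 and 403 reads, a log2(fold-change) of -0.85 (-1.02 to -0.67), while its paralog *Ppm1f* had 514 and 416 reads, a log2(fold-change) of -0.21 (-0.40 to -0.02).

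Of the 10 genes of AMPK subunits and other kinases downstream of CaMKK, 9 had at least 10 reads, with a median of 0.06, 2 intervals above 0 and 3 below 0. The 2 above 0 were *Akt1* at 0.19 and *Prkag2* at 0.17. The 3 below 0 were *Brsk1* at -0.50 (-0.86 to -0.13) and both catalytic subunits of AMPK. *Prkaa1* went from 518 to 360 reads with a log2(fold-change) of -0.43 (-0.63 to -0.23), and *Prkaa2* from 533 to 393 reads with -0.35 (-0.54 to -0.16). At 4637 and 7969 bases, *Prkaa1* and *Prkaa2* fall in the longest length bin, with a median of -0.15, and the part of length was not tested. *Brsk2* alone passed the fold of 2, with 8 and 17 reads and an interval of -0.11 to 2.60 that held 0.

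At the 2 ends of the pathway, the channel and the transcription factor were both lower in the depolarized library. *Cacna1c*, the gene of Cav1.2, had 1890 and 1066 reads, a log2(fold-change) of -0.73 (-0.84 to -0.62), and *Creb1* had 633 and 472 reads, a log2(fold-change) of -0.33 (-0.51 to -0.16). At 6620 bases, *Cacna1c* falls in the longest length bin, with a median of -0.15, and the part of length was not tested. Of 8 channel and caveolar partners, 2 intervals lay above 0 and 4 below, with *Cav3* at -0.48. The 2 above 0 were *Cavin1* at 0.32 and *Cav1*, with 5233 and 5212 reads, at 0.09 (0.03 to 0.14). Both turned negative with *Ppia* and *Hprt*. Of 8 genes of the CREB machinery, 2 lay above 0 and 3 below. *Crem*, a CREB relative, was the highest at 0.98 (0.87 to 1.09) and *Crtc1*, a coactivator, the lowest at -0.45 (-0.68 to -0.22). None of these 16 genes passed the fold of 2.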

How the data were processed

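RNA-seq was performed on 2 libraries of mouse mesenteric artery, 1 per condition. TopHat2 alignment to mm9 came first, per the methods. The authors deposited the reads per gene as raw counts, and FPKM made from them. The submitters' processing notes name TopHat2 2.0.12, HTSeq 0.6.1 and edgeR 3.0.8, and mm8 beside mm9. The annotation is not given in the sources used here. Symbols and positions are from GENCODE vM1, which held 32601 of 55573 identifiers.

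TMM factors were computed with edgeR 4.0.16 (R 4.3.3) on genes with at least 10 reads over both libraries. Without replicates a quasi-likelihood fit could not be run. Intervals are 95% Clopper-Pearson (SciPy 1.17.1), and ratios of ratios have exact conditional intervals. Shares of calmodulin reads are of *Calm2* and *Calm3* together. Intervals cover counting error only. Counts of 0 were set to 0.5. Gene length was the count divided by FPKM and total reads. Alternatives were total-count, upper-quartile, median-of-ratios (DESeq2 1.42.0) and *Ppia* and *Hprt* scaling, TMM on all genes or on at least 100 reads, FPKM with pseudocounts of 0.1 and 1, a fold of 1.5 and, added later, removal of a length trend. Members and gene lists were chosen with earlier results of these data known. The choice of members was made by symbol and did not use the values of these genes. List genes were named if past the fold of 2, or else the 3 with the largest change among genes with at least 50 reads. Some genes were named outside this rule after their values were seen. These were *Camk2n1*, *Ppm1e*, *Ppm1f*, *Strn*, *Strn3*, *Strn4*, *Prkaa1*, *Prkaa2*, *Brsk1*, *Prkag2*, *Akt1* and *Cav1*, and CaMK family genes under that limit. Plots were made in Python 3.11.15 (matplotlib 3.10.9).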

Additional observations from a re-analysis of the deposited data

How the results depend on the processing

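No paired analysis was possible because there was only 1 library for either condition. With TMM scaling, 5 genes had a counting interval above 0, 3 had one below 0 and 0 were past the fold of 2, and the median log2(fold-change) was 0.14. Median-of-ratios scaling and TMM on all genes or on genes with at least 100 reads left all 9 values within their counting intervals, as did upper-quartile scaling for 8 of 9. Upper-quartile scaling put 1 gene, *Camk1d*, past the fold of 2, and with it or with TMM on genes with at least 100 reads the interval of *Camkk2* held 0. Total reads gave a median of -0.059, 2 genes above 0 and 1 past the fold of 2, and turned *Camkk2* to -0.030 and *Calm3* to -0.059. FPKM gave a median of -0.059 with either pseudocount and turned *Calm3* to -0.059 and *Camkk2* to -0.030 (0.1) or -0.029 (1), with 1 gene past the fold of 2 for 0.1 only. *Ppia* and *Hprt* scaling gave a median of -0.34, 0 genes above 0, 9 below and 1 past the fold of 2, and turned *Camk1* to -0.19, *Camkk2* to -0.31, *Camk2g* to -0.21, *Calm2* to -0.068 and *Calm3* to -0.34. These shifts follow from the scaling itself. Removing the length trend gave a median of 0.010, with 4 genes above 0 and 1 below. A fold of 1.5 was passed by 1 gene, *Camk1d*. Shares from FPKM differ from shares of reads because they are per unit length. Depth limits *Camk1d* and *Camk2b* most, and the spread between mice cannot be estimated.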

Other observations

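Other enzymes that calmodulin switches on were spread in both directions. Of 21 such genes, 18 had at least 10 reads, with a median log2(fold-change) of 0.07, 8 counting intervals above 0, 7 below 0 and 3 across 0. The genes past the fold of 2 were *Itpkc*, an inositol trisphosphate kinase gene, with 97 and 242 reads and log2(fold-change) at 1.41 (1.07 to 1.77), and *Nos3*, the endothelial nitric oxide synthase gene, with 1013 and 2025 reads and 1.09 (0.983 to 1.203). With total reads scaling, which lowers each value by 0.20, *Nos3* fell below that fold, and with *Ppia* and *Hprt*, which lowers each value by 0.48, both did. The 5 endothelial markers had a median log2(fold-change) of 0.48, with values from -1.11 to 0.82, and their part in the value of *Nos3* was not tested.

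Of 11 genes of calmodulin-binding and buffering proteins, 10 had at least 10 reads, with a median of 0.01, 3 intervals above 0 and 2 below. *Marcksl1* was the highest, with 124 and 208 reads and log2(fold-change) at 0.84 (0.51 to 1.17). The neuronal proteins' genes *Gap43*, with 48 and 25 reads and -0.85 (-1.61 to -0.12), and *Nrgn*, with 56 and 34 reads and -0.63 (-1.29 to 0.01), were the lowest. *Pcp4* had 0 reads in both libraries. Among 5 housekeeping genes the median was 0.46, with *Gapdh* the highest at 0.61 and *Tbp* the lowest at 0.15. Of 7 other genes of the CaMK and calmodulin-like families, 3 had at least 10 reads, and all 3 intervals held 0, with *Calml4* at 0.31 (-0.15 to 0.77).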
